A study of Mus musculus with 20 samples.

Results

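The comparison set the right extensor digitorum longus (EDL) muscle of 5 vehicle-injected mice, which had received vectors for dominant negative HDAC4 and HDAC5 (dnHDAC4/5), against the left EDL of the same animals, which had received an empty vector. The members were the 10 arrays that the labels place in these 2 groups, of 20 arrays in the series. Paired legs were recognised by the shared animal identifier and replicate number. The mice were male C57Bl6, 8 weeks old when the hindlimb was injected with recombinant adeno-associated virus of serotype 6 (rAAV6). The dnHDAC4/5 leg received vectors for D832N HDAC4 and D861N HDAC5, at 2.5e+10 vector genomes of each in a 30 µL injection, into the anterior and posterior compartments so as to reach the soleus and the EDL. All animals of the comparison then received an intraperitoneal injection of 5% DMSO in buffered saline 4 weeks later. The other 10 arrays came from animals treated in the same way but injected with Scriptaid, a histone deacetylase inhibitor, and serve here only to show whether a difference recurred. The titles of the 5 empty-vector arrays among them read vehicle, whereas their descriptions give Scriptaid. The descriptions were followed here, and these legs share animal identifiers with the dnHDAC4/5 legs given Scriptaid. RNA of the whole muscle was hybridised to 1-colour Agilent arrays, so that fewer cells of a type and less RNA per cell cannot be told apart. The promoter that drives the mutant proteins is not given in the sources used here. Every empty vector lay in a left leg and in the first array place of its slide, and every dnHDAC4/5 vector in a right leg and in the second place. Vector, side of the body and array place therefore cannot be told apart.

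HDAC4 and HDAC5 are class IIa histone deacetylases, which bind myocyte enhancer factor 2 (MEF2) proteins in the muscle nucleus and hold MEF2 target genes down as part of a corepressor complex. They leave the nucleus when kinases phosphorylate them, as happens during contraction. In skeletal muscle they are known for roles in fibre type, in metabolic gene expression and in the response to loss of the nerve, where HDAC4 and myogenin act on the acetylcholine receptor genes of the neuromuscular junction.

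Levels are given as log2 intensity relative to the 75th percentile of the array, so that 0 is the level of a bright probe and negative values are below it. A difference is the dnHDAC4/5 leg minus the empty-vector leg of the same animal on the log2 scale. Its error is limma's moderated standard error (SE), where each gene's variance over the animals is drawn towards a value common to all genes. Steady genes thus get a larger error, and variable genes a smaller one, than their own spread gives. Values per leg are listed from animal 1 to animal 5. Unless stated otherwise, 5 animals were measured.

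The promoters of 3 genes on which the results turn are shown first, because MEF2 and myogenic factors act through short elements near start sites. They are Chrna9, detected almost only with dnHDAC4/5, Igfn1, higher in all 5 animals, and Myh3, lower in all 5 without overlap between the groups. Each run is the 250 bases before the RefSeq start site in GRCm38.p6, 5′ to 3′ on the gene's strand, and capitals mark E-boxes, the CANNTG element that myogenic factors bind. The Chrna9 run lies on the plus strand at chr5:65966874-65967123, the Igfn1 run on the minus strand at chr1:136006343-136006592 and the Myh3 run on the plus strand at chr11:67078050-67078299.
Chrna9: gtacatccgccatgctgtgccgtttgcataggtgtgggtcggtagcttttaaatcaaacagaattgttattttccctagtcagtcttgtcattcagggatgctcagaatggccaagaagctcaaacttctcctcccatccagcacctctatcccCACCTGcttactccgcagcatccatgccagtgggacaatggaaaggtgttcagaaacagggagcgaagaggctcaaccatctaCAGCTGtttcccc
Igfn1: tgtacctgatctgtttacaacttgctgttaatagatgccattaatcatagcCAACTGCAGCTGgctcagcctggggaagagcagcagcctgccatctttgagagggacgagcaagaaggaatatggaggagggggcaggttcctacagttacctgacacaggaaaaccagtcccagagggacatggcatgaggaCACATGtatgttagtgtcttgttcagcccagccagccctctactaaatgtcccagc
Myh3: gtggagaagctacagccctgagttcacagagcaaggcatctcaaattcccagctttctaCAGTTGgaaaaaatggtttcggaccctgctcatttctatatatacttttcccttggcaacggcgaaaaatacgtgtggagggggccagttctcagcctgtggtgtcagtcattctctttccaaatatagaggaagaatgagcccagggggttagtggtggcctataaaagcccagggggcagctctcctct
The Chrna9 run held 2 E-boxes, the Igfn1 run 3 and the Myh3 run 1, and none of the 3 held the 10-base MEF2 consensus element on either strand. RefSeq promoters of 250 bases before to 50 after the start were found for 26 of 36 genes searched, the 30 genes named below by smallest p and 6 others. These genes have 34 promoters, of which 27 held an E-box (79.4%), against 72.3% of 32851 mouse promoters of the same length. The MEF2 consensus element lay in 0 of 34, against 3.19% of all promoters. A match or its lack describes these letters only.

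The 10 arrays were close in brightness. The 75th percentile of intensity ran from 338.5 to 544.2 and the share of spots well above background from 51.7% to 59.9%. The 75th percentile was higher in the dnHDAC4/5 leg in only 1 of 5 animals, the share well above background in 3 and the number of outlier spots in 2. An exact two-sided sign-flip permutation over 5 animals gave p from 0.375 to 0.4375 for these measures. Its smallest possible p is 0.062, so it could not have shown a difference at 0.05. On the empty-vector array of animal 5, 0.917% of interior spots lay over 3 log2 units below the probe's median in the series, against at most 0.055% on the other 9. Genes on such spots look higher in the dnHDAC4/5 leg of that animal alone. Whole profiles of the paired legs correlated at 0.965 to 0.987 across genes. The difference profiles of different animals correlated at only -0.17 to 0.18, so most of each animal's difference was not shared with the others. The labelled muscle was checked by its fast-fibre markers. The 7 measured markers, Ckm, Acta1 and Myh4 among them, were bright, with a mean level over the list between 6.83 and 7.39 on every array.

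The probes for Hdac4 and Hdac5 are for the mouse genes, and whether they read the vector's transcripts is not given in the sources used here, so they do not check the labels. Hdac4 stood at 0.71, 0.95, 0.81, 1.31 and 0.99 in the empty-vector legs and at 1.42, 1.45, 1.06 and 1.02 in the dnHDAC4/5 legs of animals 1, 2, 3 and 5. It was higher in all 4 animals measured on both sides, by 0.37 ± 0.15. Hdac5 differed by -0.02 ± 0.17 over 4 animals and its sign turned under several settings. Among their partners, Mef2a was higher by 0.26 ± 0.11 and Mef2c by 0.34 ± 0.16, although a second Mef2c probe read -0.30. Mef2d differed by 0.11 ± 0.13, Hdac7 by -0.14 ± 0.09 and Hdac9 by -0.48 ± 0.26. Of 8 class IIa HDAC and MEF2 genes measured, Mef2a alone reached an unadjusted p under 0.05, as 7.38% of all genes did. Of 20 measured genes listed as MEF2 targets of fast and slow muscle, 8 were higher and 12 lower with a median of -0.03, and 3 reached that level. These were Hspb7 upward and Myl2 and Tnni1 downward.

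Across 14625 genes, limma's paired test called no gene at an adjusted p under 0.05, and the smallest Benjamini-Hochberg adjusted p was 0.607. At an unadjusted p under 0.05 stood 1079 genes (7.38%), of which 452 (3.09%) were higher and 627 (4.29%) lower in the dnHDAC4/5 leg. The share higher was 41.9% of these, but 68.1% with the authors' value table. The groups of 5 arrays did not overlap for 93 genes (0.636%), 48 higher (0.328%) and 45 lower (0.308%). The difference had 1 sign in every measured animal for 1447 genes (9.89%), 574 upward (3.92%) and 873 downward (5.97%). With simulated shifts on the same spreads, the test called 5 of 50 genes shifted by 0.5 log2 units, 27 of 50 shifted by 1, 40 of 50 shifted by 2 and 47 of 50 shifted by 4. There were 8 false calls. A 2-fold difference would thus often have been missed. All these genes were shifted together, which eases the adjusted threshold, so a lone difference of the same size would be called less often. Every difference in vehicle animals below is therefore a description of 5 animals, and none passed the test across genes.

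**Figure D1:**
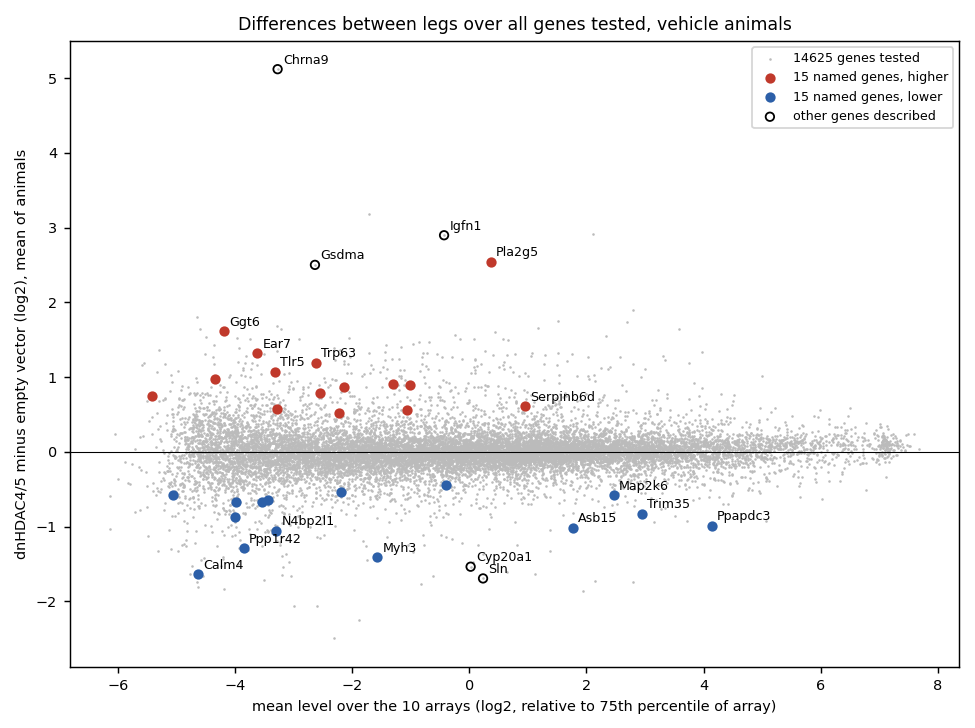
Each grey point is 1 of the 14625 genes tested, with its mean level over the 10 arrays (log2, relative to the array's 75th percentile) on the x axis and the mean difference between legs (log2) on the y axis. Red and blue points mark, for each direction, the 15 genes with the lowest p among those of 1 sign in every measured animal, and open circles are other genes described. Chrna9 lies at 5.12, Igfn1 at 2.90, Pla2g5 at 2.55 and Myh3 at -1.41. Chrna9 and Calm4 are drawn at their measured values, although 1 of their groups has only a bound.

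The measured signal differed by at least 1.5-fold one way in all 5 animals for 12 genes, 7 upward (0.0479% of genes tested) and 5 downward (0.0342%). For 8 of them at least 1 leg of every animal was well above background. These were Igfn1, Pla2g5, Ggt6, Trp63 and the transcript A930003A15Rik upward, and Sln, Myh3 and N4bp2l1 downward. For the other 4, Chrna9, Gm19410, Calm4 and Ppp1r42, both legs of at least 1 animal were not well above background, so there the size of the measured difference is uncertain.

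The largest difference was in Chrna9, which encodes a nicotinic receptor subunit, α9, known from sensory hair cells rather than from the muscle endplate. Its level in the empty-vector legs was -6.38, -6.82, -4.08, -5.77 and -6.11, and on none of these arrays was the probe well above background. In the dnHDAC4/5 legs it was -0.13, 0.68, -0.42, 1.69 and -5.38. It was thus well above background in 4 dnHDAC4/5 legs and at the level of the empty vector in that of animal 5. The measured difference was 5.12 ± 1.05, and 6.22 over the 4 animals with a detected leg. Since the empty-vector side has only a bound, Chrna9 was at least 11.7-fold higher on average (set against the lowest signal well above background on each array). That average takes the undetected dnHDAC4/5 leg of animal 5 at its measured value. A second probe read 4.00. Of 11 listed nicotinic subunits outside the muscle receptor, Chrna9 among them, 7 were below background on all 10 arrays. The 2 further ones measured, Chrna4 and Chrna2, differed by -0.30 ± 0.30 and 0.08 ± 0.27. A second Chrna4 probe, near background too, read 1.38.

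Igfn1, an immunoglobulin-like and fibronectin type III protein of the sarcomere's Z-disc region, followed. It stood at -2.33, -1.88, -1.62, -1.68 and -1.89 with empty vector and at 1.98, 2.44, -0.31, 1.74 and -0.76 with dnHDAC4/5. Every dnHDAC4/5 leg lay above every empty-vector leg, with animals 3 and 5 lowest, and the difference was 2.90 ± 0.57 (7.45-fold). Tubb6, a β-tubulin, had a mean difference of 2.91 in 4 animals, but its low empty-vector levels were in animals 2 and 5 alone, at -0.25 and -2.25 against 2.77 and 2.49. A930003A15Rik, a transcript without an assigned function here, was higher by 3.18 ± 0.39. Its levels were -2.71, -2.64, -2.45, -2.44 and -6.31 with empty vector and 0.13, 0.48, -0.66, 1.03 and -1.62 with dnHDAC4/5, and the very low value is on the array with many low spots. Gm19410 was well above background in 3 dnHDAC4/5 legs and 0 empty-vector legs and gets no fold.

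Pla2g5 encodes group V phospholipase A2, a secreted enzyme that releases fatty acids from phospholipids. Its level was 0.39, 0.27, -2.20, -1.30 and -1.70 in the empty-vector legs and 2.08, 2.82, 0.59, 3.10 and -0.40 in the dnHDAC4/5 legs. The groups overlapped because animals differed in their starting level, but each animal was higher, by 2.55 ± 0.44 (5.84-fold). Of 10 phospholipase A2 genes measured, 6 were higher and 4 lower with a median of 0.05, and 3 reached an unadjusted p under 0.05, all upward (3.09% of all genes did). The others were Pla2g7, the platelet-activating factor acetylhydrolase of plasma, at 0.98 ± 0.18 over 4 animals, and Pla2g16, an intracellular phospholipase, at 0.34 ± 0.12. Gsdma, a pore-forming gasdermin, was higher in 4 of 5 animals by 2.50 ± 0.69, and its second probe read 2.63. The dnHDAC4/5 leg of animal 5 again stood apart at -3.48, near its empty-vector leg at -3.31, whereas animals 1 to 4 reached 0.03, -0.84, -2.22 and -0.41.

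**Figure D2:**
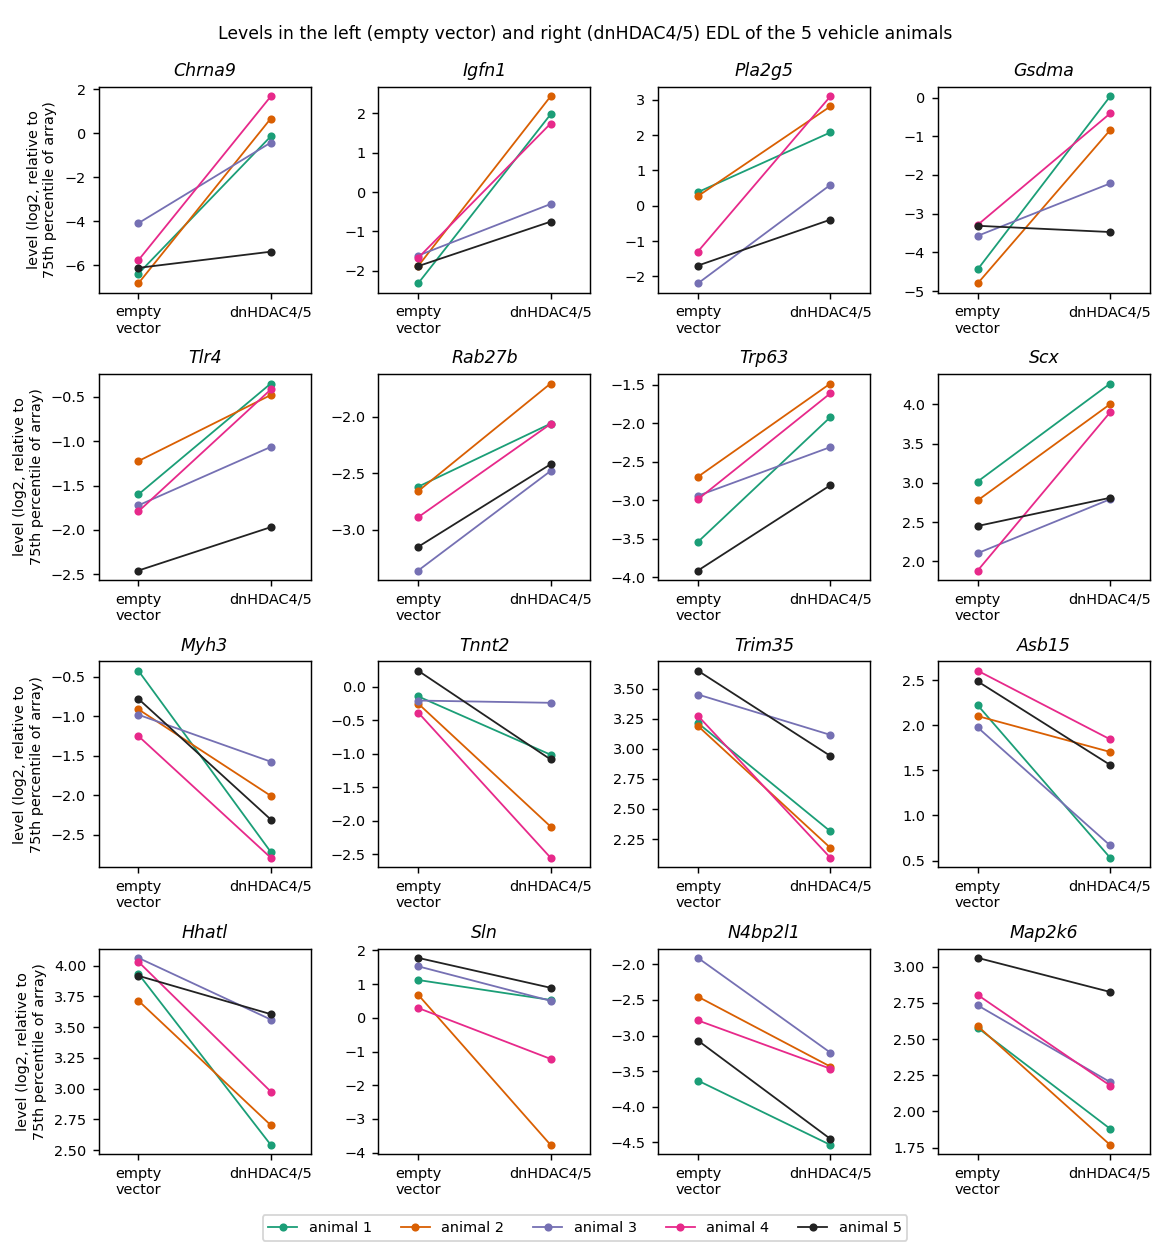
Each panel shows 1 gene, with the level (log2, relative to the array's 75th percentile) in the empty-vector and the dnHDAC4/5 EDL, and a line joins the legs of 1 animal. In the upper 8 panels the lines go up except for Gsdma in animal 5, and in the lower 8 panels they go down, with animal 5 (black) nearly level for Chrna9 and animal 3 nearly level for Tnnt2.

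Receptors of innate immunity lay on the upper side. Tlr4, the receptor for bacterial lipopolysaccharide, stood at -1.60, -1.22, -1.72, -1.79 and -2.46 with empty vector and at -0.35, -0.48, -1.06, -0.42 and -1.97 with dnHDAC4/5. It was higher in each animal by 0.90 ± 0.16, and animal 5 was lowest on both sides. Tlr5, the flagellin receptor, was higher in each by 1.07 ± 0.17, from -3.92, -3.35, -4.02, -4.15 and -3.84 to -2.78, -2.27, -2.91, -2.53 and -3.43. All 9 measured genes of the Toll-like receptor list were higher, against 49.8% of all genes, and 3 reached an unadjusted p under 0.05 (3.09% of all genes did), the third being the co-receptor Cd14 at 0.45 ± 0.14. The list median was 0.45, against -0.00088 over all genes, and was positive in each animal, between 0.05 and 0.66. With normexp background correction the median was 0.17. Macrophages carry several of these receptors. Of 12 macrophage markers measured, 10 were higher, with a median of 0.20. Per animal this median was 0.00, 0.01, 0.73, 0.46 and -0.24, so the higher values lay in animals 3 and 4, whereas the receptor medians were 0.35, 0.28, 0.66, 0.61 and 0.05. The markers Fcgr1 at 0.42 ± 0.13 and Ctss at 0.46 ± 0.18 reached an unadjusted p under 0.05. The mean level of the macrophage list ran from -0.72 to 0.59 in the empty-vector legs and from -0.25 to 0.57 in the dnHDAC4/5 legs, and its part in the receptor values was not tested. Of 17 antigen presentation genes, class I and class II together, 14 were higher with a median of 0.21. The 3 at an unadjusted p under 0.05 were class II genes. H2-DMa was higher by 0.36 ± 0.11, H2-Eb1 by 0.44 ± 0.16 and H2-Ab1 by 0.43 ± 0.17, whereas the interferon response list had a median of -0.02 with 7 of 16 higher.

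Rab27b, a small GTPase of secretory vesicles, had the smallest p of all named genes. It stood at -2.62, -2.66, -3.36, -2.89 and -3.15 with empty vector and at -2.06, -1.70, -2.48, -2.06 and -2.42 with dnHDAC4/5. The groups did not overlap, and the difference of 0.79 ± 0.09 varied little, with limma's unadjusted p at 0.000138 and its adjusted p at 0.607. Sytl2, a synaptotagmin-like protein that binds Rab27, was higher by 0.90 ± 0.17, and Rph3al, which binds Rab proteins on secretory granules, by 0.57 ± 0.10. Both overlapped between groups while each animal was higher. Trp63, the p53 family transcription factor of epithelia and of some muscle states, went from -3.54, -2.70, -2.94, -2.99 and -3.91 to -1.92, -1.49, -2.31, -1.61 and -2.81, a difference of 1.19 ± 0.15. Serpinb1c, an intracellular protease inhibitor, was higher without overlap by 0.87 ± 0.12, and Serpinb6d by 0.61 ± 0.10. The remaining named genes on the upper side spanned several functions. Ggt6, a gamma-glutamyltransferase family member, was higher by 1.61 ± 0.31 and without overlap, well above background in 1 empty-vector leg and 5 dnHDAC4/5 legs. Ear7, an eosinophil-associated ribonuclease, was higher by 1.32 ± 0.24 without overlap. Ddc, which makes dopamine and serotonin from their amino acid precursors, was higher by 0.97 ± 0.17 near background. Fgf9, a fibroblast growth factor, was higher by 0.52 ± 0.09, and Pmepa1, an inhibitor of TGF-β signalling, by 0.56 ± 0.10. Lrrc50 (now Dnaaf1, an assembly factor of ciliary dynein) was well above background on 1 of 10 arrays and gets no fold. Of the 15 genes, 8 were well above background on all 10 arrays. Groups did not overlap for 4, whereas 0.328% of all genes were higher without overlap. The 15 were chosen for small p and 1 sign, which favours such genes.

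Animal 5 had the smallest of the 5 differences for 9 of these 15 genes, and animal 4 the largest for 10. Among the 15 named genes on the lower side, animal 5 had the smallest for only 3 and animal 3 for 7. Among the 12 genes that differed at least 1.5-fold in all animals, animals 3 and 5 each had the smallest for 4. Animal 5 also stood apart in genes well above background in 4 dnHDAC4/5 legs and 0 empty-vector legs. Vash2, a tubulin carboxypeptidase, and Tnfrsf23, a decoy receptor of the TNF family, were higher in animals 1 to 4 and lower in animal 5. On average over the 5 animals, Vash2 was at least 1.5-fold and Tnfrsf23 at least 1.3-fold higher. In all, 5 genes (0.0342%) had this pattern of detection, Zfp738 among them, a zinc finger gene whose difference was only 0.19 ± 0.25. The reverse held for 1 gene (0.00684%), Fam19a4 (now Tafa4, a secreted neuropeptide-like protein), at least 1.3-fold lower on average. Its measured value was higher in animal 3, by 0.77. Ces2c, a carboxylesterase, was higher by 1.68 ± 0.52 and Ces2b by 1.23 ± 0.57, each in 4 animals and lower in animal 5.

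On the lower side, Trim35, a tripartite motif ubiquitin ligase, was among the bright genes. It stood at 3.21, 3.19, 3.45, 3.27 and 3.65 with empty vector and at 2.31, 2.18, 3.12, 2.10 and 2.94 with dnHDAC4/5. Every dnHDAC4/5 leg lay below every empty-vector leg, by 0.83 ± 0.14, and the 2 further probes read -1.43 and -0.54. N4bp2l1, whose role in muscle is little described, was lower by 1.06 ± 0.13, from -3.63, -2.45, -1.91, -2.79 and -3.07 to -4.54, -3.44, -3.24, -3.47 and -4.45. Map2k6, the kinase that activates p38, went from 2.58, 2.59, 2.73, 2.81 and 3.06 to 1.88, 1.77, 2.20, 2.18 and 2.83, a difference of -0.58 ± 0.11, smallest in animal 5. Ppapdc3 (now Plpp7, a nuclear envelope protein of the lipid phosphatase family) was lower by 0.99 ± 0.15 over 4 animals. Its empty-vector spot of animal 5 was an outlier spot and left out. With outlier spots kept the difference was 0.15, so this value rests on that exclusion. Calm4, a calmodulin-like gene, was well above background in 3 empty-vector legs and 0 dnHDAC4/5 legs. It was at least 1.6-fold lower on average, with undetected empty-vector legs taken at their measured values. Ppp1r42, a regulator of protein phosphatase 1, was lower by 1.29 ± 0.24, well above background in 3 legs of each group. The kinase Pik3c2g was lower by 0.65 ± 0.11, the olfactory receptor Olfr558 by 0.87 ± 0.14 and the GDNF receptor Gfra1 by 0.67 ± 0.13. Olfr558 was well above background in only 3 empty-vector legs and 1 dnHDAC4/5 leg, so the size of its difference is uncertain. Tlx2, a homeobox factor, was lower by 0.54 ± 0.10, Glt28d2, a glycosyltransferase family member, by 0.45 ± 0.09 and Ttc18 (now Cfap70, a ciliary protein) by 0.67 ± 0.13. Cyp2a4, a steroid hydroxylase, was near background and gets no fold. Groups did not overlap for 4 of the 15, chosen in the same way, whereas 0.308% of all genes were lower without overlap.

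Several single genes of immature muscle fibres were lower. Myh3, the embryonic myosin heavy chain, stood at -0.42, -0.91, -0.98, -1.25 and -0.78 with empty vector and at -2.72, -2.01, -1.58, -2.79 and -2.31 with dnHDAC4/5. The groups did not overlap, the difference was -1.41 ± 0.24, and a second probe read -1.45. Tnnt2, the cardiac troponin T that immature fibres express, went from -0.15, -0.25, -0.21, -0.39 and 0.24 to -1.02, -2.09, -0.24, -2.55 and -1.09, a difference of -1.25 ± 0.31 with animal 3 almost level. Myl10, a regulatory myosin light chain, was lower by 1.66 ± 0.40 in 5 of 5 animals. Of 11 listed embryonic and neonatal sarcomere genes, 6 were lower, near the share of all genes, 4 of them at an unadjusted p under 0.05 (4.29% of all genes were), and none of the 5 higher genes reached it. The neonatal myosin Myh8 was among these 5, at 0.09 ± 0.13. The list median of -0.45 was negative in each animal, but it was 0.03 without the pairing, 0.09 with outlier spots kept and -0.19 without animal 4.

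The lower values of slow-fibre genes lay mainly in animals 1 and 2. The slow myosin Myh7 stood at 5.56, 5.82, 3.30, -0.35 and 0.71 in the empty-vector legs and at -0.34, 2.73, 2.72, 1.58 and -0.33 in the dnHDAC4/5 legs. The high values were in the empty-vector legs of animals 1 and 2, and the difference of -1.73 ± 1.06 was within the spread. Myl2, the slow regulatory light chain, was lower by 1.86 ± 0.61 in 4 of 5 animals, and Tnni1, slow troponin I, by 1.44 ± 0.52 in all 5. Of 8 listed genes 7 were lower, with a median of -0.51. Per animal the median was -2.01 and -1.61 in animals 1 and 2 and between -0.19 and -0.04 in the others. Of 13 fast-fibre sarcomere genes 11 were higher, none at an unadjusted p under 0.05. Their median was 0.11. Only 3 of them could be measured on the authors' value table, with a median of -0.34. Myoz3, a Z-disc protein of fast fibres, was the 1 gene of that list lower at this level, by 0.39 ± 0.10. Of the Z-disc and scaffold list, Mybpc1, the slow myosin-binding protein C, was lower by 0.61 ± 0.23 and Ky by 0.31 ± 0.13. Of 10 genes listed as myogenic factors and satellite cell genes, 5 were higher and 5 lower, with a median of -0.06. Myog, the myogenic factor myogenin, was lower by 0.39 ± 0.14 and the growth factor receptor Met by 0.42 ± 0.16, whereas the cadherin Cdh15 differed by 0.40 ± 0.17.

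**Figure D3:**
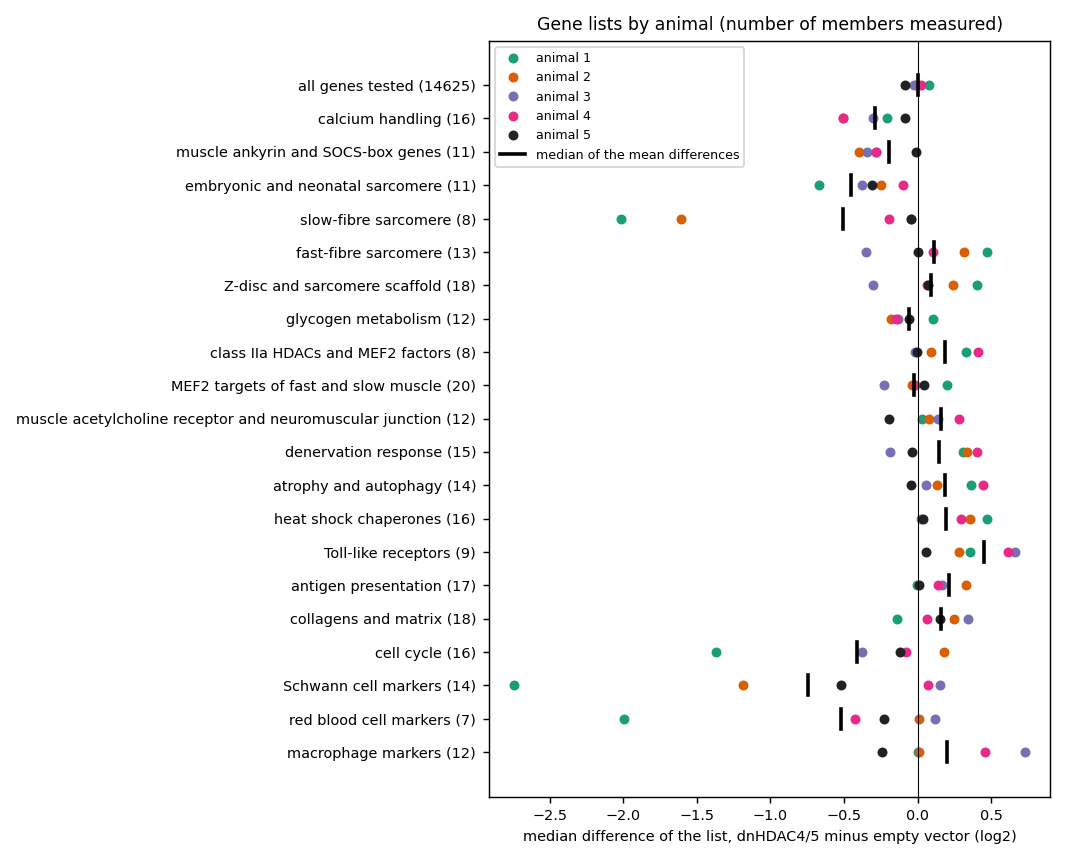
Each point is the median difference (log2, x axis) over the measured members of a gene list in 1 animal, and the black bar is the median over members of the mean differences. The number of members measured stands beside each name. Calcium handling lies below 0 and Toll-like receptors above 0 in each animal, whereas animal 1 lies farthest below 0 in the slow-fibre, cell cycle, Schwann cell and red blood cell lists, and animal 2 also lies far below 0 in the slow-fibre and Schwann cell lists.

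Among genes of calcium handling, 11 of 16 measured were lower. At an unadjusted p under 0.05 stood 6 downward (4.29% of all genes did) and 0 upward. The median was -0.29, between -0.51 and -0.08 in the 5 animals. Hhatl, an acyltransferase-like protein of the reticulum, stood at 3.93, 3.72, 4.06, 4.03 and 3.92 with empty vector and at 2.54, 2.70, 3.56, 2.98 and 3.61 with dnHDAC4/5. It was lower without overlap by 0.85 ± 0.18, least in animals 3 and 5. The junctophilins tie the sarcoplasmic reticulum to the surface membrane, and both were lower in each animal, Jph2 by 0.55 ± 0.13 and Jph1 by 0.46 ± 0.11. Cacnb1, the β subunit of the muscle calcium channel, was lower by 0.42 ± 0.10 and Asph, whose junctate and junctin forms lie at the same contact, by 0.37 ± 0.14. Sln, sarcolipin, the inhibitor of the reticulum's calcium pump, stood at 1.12, 0.69, 1.53, 0.29 and 1.78 with empty vector and at 0.53, -3.77, 0.51, -1.22 and 0.89 with dnHDAC4/5. It was lower in each animal by 1.69 ± 0.57, most in animal 2. The channel pore Cacna1s differed by 0.00 ± 0.14 and the release channel Ryr1 by -0.15 ± 0.15 over 3 animals.

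The ankyrin repeat and SOCS-box genes of muscle, substrate adaptors of ubiquitin ligases, included 5 of 11 lower at an unadjusted p under 0.05 and 0 higher, against 4.29% and 3.09% of all genes. Asb15 stood at 2.22, 2.10, 1.97, 2.60 and 2.49 with empty vector and at 0.53, 1.70, 0.67, 1.84 and 1.56 with dnHDAC4/5. The groups did not overlap, and the difference was -1.02 ± 0.20. Asb10 was lower by 0.65 ± 0.19, Asb14 by 0.48 ± 0.13 and Asb5 by 0.42 ± 0.15 (4 animals each for the last 2), and Asb18 by 0.47 ± 0.18 in 4 of 5 animals. The list median was -0.19, and -0.42 without animal 5. Ubiquitin ligases of the tripartite motif family had no common direction, with 9 of 15 higher. Trim16 was higher without overlap by 0.48 ± 0.16 and Trim63 (MuRF1, a ligase of atrophy) differed by 0.28 ± 0.12.

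Glycogen genes lay on both sides. Stbd1, which anchors glycogen to membranes, stood at 2.09, 2.24, 3.27, 3.01 and 3.03 with empty vector and at 4.17, 4.11, 3.62, 4.68 and 3.23 with dnHDAC4/5. It was higher in each animal by 1.23 ± 0.33, strongly in animals 1, 2 and 4 and little in animals 3 and 5, and its further probes read 1.24 and 1.09. Ppp1r3c, a subunit that directs protein phosphatase 1 to glycogen, was lower in each by 0.70 ± 0.20. The phosphorylase kinase subunit Phkg1 was lower by 0.28 ± 0.09. The list as a whole had 4 of 12 genes higher and a median of -0.06. Oxidative phosphorylation (median 0.06), glycolysis (0.07) and fatty acid uptake and oxidation (0.05) lay near the median of all genes. At an unadjusted p under 0.05 stood 0 of 12, 1 of 14 and 1 of 13 members, against 7.38% of all genes. On the authors' value table the glycolysis median was -0.20, over 9 genes.

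Chaperones were mostly higher, 12 of 16, against 49.8% of all genes, with a median of 0.19. At an unadjusted p under 0.05 stood 5 upward and 1 downward, against 3.09% and 4.29% of all genes. Hspa1b, an inducible heat shock protein, stood at -3.54, -2.29, -3.43, -5.03 and -5.91 with empty vector and at -3.32, 0.17, -2.53, -1.30 and -5.03 with dnHDAC4/5, a difference of 1.64 ± 0.52. Its near-identical copy Hspa1a differed by 1.55 ± 0.60, and probes may not separate the 2. The small heat shock proteins Hspb7 and Hspb8 were higher by 0.76 ± 0.22 and 0.47 ± 0.16, and the co-chaperone Dnajb5 was lower by 0.54 ± 0.15. Xbp1, a factor of the unfolded protein response, was higher by 0.43 ± 0.13, and the metallothioneins Mt2 and Mt1 by 1.28 ± 0.37 and 0.78 ± 0.26. The growth regulator Myc was higher by 0.70 ± 0.16, and Eif4ebp1, an inhibitor of translation, by 0.68 ± 0.14 over 4 animals. Its second probe read 0.52. With the mean of all probes the value was -0.053, where the dnHDAC4/5 leg of animal 5 lacked the brighter probe. Map1lc3a, an autophagy protein, was higher by 0.62 ± 0.18 over 4 animals. Of the atrophy and autophagy list 12 of 14 were higher with a median of 0.19.

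Genes of the neuromuscular junction split evenly, 6 of 12 higher. Upward at an unadjusted p under 0.05, as 3.09% of all genes were, stood 3 genes. Rapsn, which clusters acetylcholine receptors, was higher by 0.35 ± 0.08 and the receptor kinase Musk by 0.95 ± 0.30. Chrng, the foetal receptor subunit, was higher by 0.71 ± 0.19. Musk was well above background in 2 empty-vector and 4 dnHDAC4/5 legs, and was lower in animal 5, by 0.36. Chrng was well above background in 2 empty-vector and 5 dnHDAC4/5 legs. Rapsn was higher in each animal, from 1.18, 1.15, 0.92, 1.41 and 0.97 to 1.49, 1.40, 1.43, 1.77 and 1.31. The other Chrng probe read -1.70, so its direction depends on the probe. Chrna1, the muscle α subunit, differed by 0.69 ± 0.32, and Ache, which breaks down acetylcholine, was lower by 0.69 ± 0.23. The median of 0.16 turned to -0.12 over genes well above background on all 10 arrays. Of 15 genes of the denervation response 11 were higher, against 49.8% of all genes, with a median of 0.14. Dach2 was higher by 0.51 ± 0.13 near background and Gadd45a by 1.11 ± 0.31, whereas Myh3, Sln and Myog were lower.

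Lists of other cell types differed in size between animals. Of 14 measured Schwann cell markers 13 were lower, with a median of -0.74 and -0.42 without animal 1. Per animal the median was -2.74, -1.18, 0.15, 0.07 and -0.52. Mbp, myelin basic protein, stood at 3.14, 1.65, 1.47, 0.44 and 0.50 with empty vector and at -0.47, -0.03, 1.38, 0.47 and -0.38 with dnHDAC4/5, and the third of its probes read 0.29. The myelin enzyme Cnp was lower in each animal by 0.54 ± 0.16 and Drp2, a dystrophin relative of myelin, in 4 of 5 by 1.26 ± 0.51. Drp2 was well above background in only 2 empty-vector legs and 1 dnHDAC4/5 leg. The mean level of the Schwann list ran from -2.14 to -0.31 with empty vector and from -2.46 to -1.20 with dnHDAC4/5, and Sox10 was below background on all 10 arrays. The 7 red blood cell markers measured were all lower, with a median of -0.52, and -0.08 without animal 1. Bpgm, an enzyme of red cells, was lower by 0.32 ± 0.09, but the mean of its probes was 0.29. Of 16 cell cycle genes 14 were lower with a median of -0.41, and -0.07 without animal 1. The mitotic kinase Aurka was lower in each animal by 0.69 ± 0.15 and Tpx2, which activates it, in 4 of 5 by 0.50 ± 0.18. Scx, scleraxis, a tendon transcription factor, was higher in each animal by 1.11 ± 0.24, from 3.02, 2.78, 2.10, 1.88 and 2.45 to 4.27, 4.00, 2.79, 3.90 and 2.81, while the fibroblast and tendon list had 8 of 13 higher and a median of 0.16. Timp1, an inhibitor of matrix proteases, was higher by 0.68 ± 0.20, and 15 of 18 collagen and matrix genes were higher with a median of 0.16. The part of nerve, blood or tendon tissue in the other values was not tested.

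The animals given Scriptaid form separate pairs of legs that share no array with the vehicle animals, although each slide held arrays of all 4 groups. Among them too, every empty vector lay in a left leg and array place 3, and every dnHDAC4/5 vector in a right leg and place 4. Side and place thus recur with the vector. Outlier spots numbered 375 to 560 on these empty-vector arrays and 657 to 1342 on the dnHDAC4/5 arrays. In the Scriptaid animals, 7.46% of 14619 genes were higher and 5.19% lower at an unadjusted p under 0.05. Limma called 2 genes at an adjusted p under 0.05 there, Chrna9 (0.014) and Pla2g5 (0.015). Over all genes, 60.7% had the same sign as in vehicle animals. The 15 named genes higher in vehicle animals were all higher in Scriptaid animals, against 55.6% of all genes, and 10 of them at an unadjusted p under 0.05. Pla2g5 was higher there by 4.17 ± 0.25, Ggt6 by 1.98 ± 0.49, Tlr5 by 1.16 ± 0.19, Sytl2 by 1.06 ± 0.15, Tlr4 by 0.82 ± 0.18 and Rab27b by 0.79 ± 0.27. Chrna9 was higher by 6.07 ± 0.32, Igfn1 by 2.98 ± 0.43, Gsdma by 2.26 ± 0.34 and A930003A15Rik by 2.91 ± 0.31. Of the 15 named genes lower in vehicle animals, 11 were lower in Scriptaid animals, against 44.4% of all genes, and 4 at an unadjusted p under 0.05. These were Trim35 at -0.63 ± 0.17, Ppapdc3 at -0.86 ± 0.19, Map2k6 at -0.44 ± 0.17 and Glt28d2 at -0.45 ± 0.14. Hhatl at -0.88 ± 0.19, Jph2 at -0.56 ± 0.15 and Asb10 at -0.86 ± 0.17 were also close to their vehicle values.

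**Figure D4:**
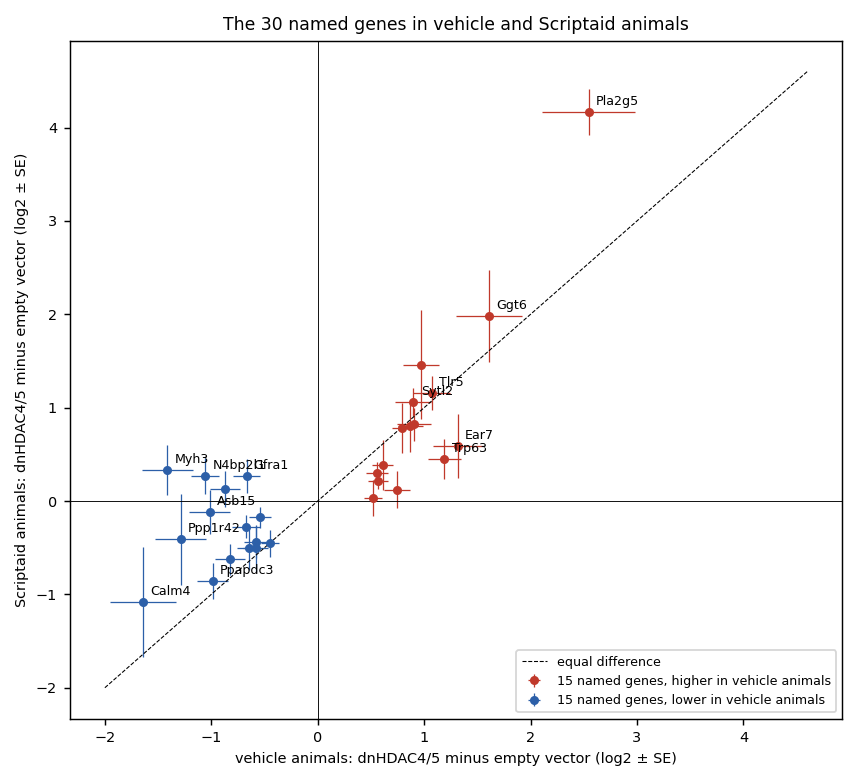
Each point is 1 of the 30 named genes, with the mean difference between legs in vehicle animals on the x axis and in Scriptaid animals on the y axis (log2, bars ± SE), and the dashed line marks equal differences. All 15 red genes lie above 0 on both axes, Pla2g5 at 2.55 and 4.17, whereas 4 of the 15 blue genes, Myh3, N4bp2l1, Gfra1 and Olfr558, lie above 0 in Scriptaid animals.

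Some genes did not recur. Myh3 differed by 0.33 ± 0.27, Tnnt2 by 0.15 ± 0.21 and Myl10 by 0.03 ± 0.28 in Scriptaid animals, and N4bp2l1 by 0.26 ± 0.19. Gfra1 differed there by 0.26 ± 0.18 and Olfr558 by 0.13 ± 0.19. Other values were smaller than in vehicle animals, with Asb15 at -0.12 ± 0.23 over 4 animals, Fgf9 at 0.03 ± 0.19 and Trp63 at 0.45 ± 0.22. The difference between the 2 sets of animals had an unadjusted limma p of 0.0011 for Myh3 and 0.00028 for N4bp2l1. Of the 30 named genes, 12 had an unadjusted p under 0.05 for this difference, 5 on the upper and 7 on the lower side. These genes were chosen by their vehicle values. Over all genes no such difference passed adjustment in limma (0 genes, 713 or 4.88% at an unadjusted p under 0.05, smallest adjusted p 0.877). None of these genes is thus shown to differ between the injections.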

How the data were processed

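Scanner files of 10 vehicle arrays were used, and of 10 Scriptaid arrays where stated. The deposited intensity values are processed signals from Agilent Feature Extraction 9.5.1.1 (protocol GE1-v5_95_Feb07), per the file headers. They were divided by the array's 75th percentile over non-control spots and taken to log2. Spots in columns 1 to 77 and rows 11 to 522 were used, outlier spots left out. Probes well above background on at least 5 of 20 arrays were kept (21153), and the brightest probe stood for its gene. The deposited value table of the series holds ratios of processed signal to 1 constant per array on a linear scale (column medians 0.27 to 0.33). How the constant was chosen is not given in the sources used here, and the table served as an alternative. Limma 3.58.1 (R 4.3.3) tested right-minus-left differences with Benjamini-Hochberg adjustment. The legs are paired by animal identifier. Deviations of paired arrays correlated at 0.26 to 0.43 in animals 2 to 5 and at 0.02 in animal 1, whose arrays did not deviate together. The highest correlation with the opposite leg of another animal was 0.11 to 0.21 in animals 2 to 5 and 0.21 in animal 1. Paired arrays also shared a slide, so this check cannot tell animal and slide apart. P-values measure the spread between these 5 animals, which limma draws towards a value common to all genes. The number of arrays limits precision. The test was checked on simulated data.

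The genes named are the 15 of smallest p in each direction with 1 sign in every measured animal, genes detected in 1 group only, the leading members of 49 gene lists, the class IIa HDAC and MEF2 genes and the 5 genes of largest spread. Genes differing at least 1.5-fold in all animals and some further list members were chosen after their values were seen. Some members that the rule names are not reported here. Members and lists were chosen with earlier results of these data known. Gene names are those of the array design, and 27584 of 28356 RefSeq accessions matched the RefSeq table.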

Additional observations from a re-analysis of the deposited data

Results flagged for a closer look

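In sets of 5 animals, a single value can stand apart from the rest, and chance alone marks about 1 in 20 such sets. Of 169 sets checked, 7 had such a value. The sets include genes named for their large spread between animals, Cyp20a1 and S100a9 among them, and that rate does not apply to these. Cyp20a1, a cytochrome P450, differed by -7.80 in animal 2 and between -0.25 and 0.29 in the others, because its empty-vector level there was 7.23 against -1.10 to -0.69. S100a9, a calcium-binding protein of neutrophils, differed by -7.23 in animal 1 and between 0.15 and 0.90 in the others, with 6.22 in the empty-vector leg. Ywhae, a 14-3-3 protein, differed by 8.63 and Tbcb, a tubulin folding cofactor, by 8.18 in animal 5, where the empty-vector array read -5.13 and -4.55 and had the most low spots. Sln differed by -4.46 in animal 2 and between -1.51 and -0.59 in the others. Asb5 differed by -0.86 in animal 2 and between -0.33 and -0.23 in the others. The median of the red blood cell markers was -1.99 in animal 1 and between -0.42 and 0.12 in the others.

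Gm19410 was well above background on only 3 of the 10 vehicle arrays. Its signal was higher in 5 of 5 vehicle animals and lower in 5 of 5 Scriptaid animals, and the difference between the injections was 1.83, with an unadjusted limma p of 9.8e-05 and no gene past adjustment.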

How the results depend on the processing

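No gene was called by limma under any of 19 alternatives, with the smallest adjusted p between 0.102 (all 20 arrays with the replicate block) and 1.00. The 1079 genes at an unadjusted p under 0.05 became 622 with no replicate block and 710 with all 20 arrays as 4 group means and no replicate block. Leaving out 1 animal gave 620 (without animal 2) to 1229. Of these genes, 41.9% were higher, and 68.1% with the authors' value table, 52.5% without animal 5 and 30.0% with no filter on background. Normexp correction as planned is not given. A few spots of very high local background, with signal minus background down to -63616.8, moved the corrected median of whole arrays. Local backgrounds over 2 times the array's median were set to that median in an alternative chosen after seeing the data. The replicate block changed no other call.

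Of 120 genes examined, 107 kept their direction under every alternative that measured them. The others turned in the following, and the cause was not tested. With the mean of all probes, Bpgm was 0.29, Chrng -0.50, Eif4ebp1 -0.053 and Mef2d -0.022. Each Eif4ebp1 probe alone was higher, but the brighter one had no value in the dnHDAC4/5 leg of animal 5. With outlier spots kept, Ppapdc3 was 0.15 and Hdac5 0.085. On the authors' value table Ppapdc3 was 0.19, Cyp20a1 0.074 and Hdac5 0.13, and with quantile normalization Hdac5 was 0.0074. Over genes above background on all 10 arrays, Ywhae was -0.0062. Leaving out 1 animal gave Cidec -1.38 to 0.72, Cyp20a1 -1.99 to 0.028, Hdac5 -0.20 to 0.076, Mup1 -1.47 to 1.03, Mup4 -1.39 to 0.96, S100a9 -1.62 to 0.42 and Zfp738 -0.10 to 0.33. The median spread of a difference over animals was 0.72 log2 units for genes at or below a level of -4 and 0.24 above 2, so dim genes are measured less precisely.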

Other observations

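The phosphatase gene Ppm1n was chosen after its values were seen. It stood at -2.86, -1.46, -2.90, -1.02 and -1.60 in the empty-vector legs and at -5.45, -5.15, -3.76, -4.39 and -1.39 in the dnHDAC4/5 legs. It was lower in animals 1 to 4 and slightly higher in animal 5, by -2.06 ± 0.61 on average, and differed by -2.73 ± 0.57 in Scriptaid animals. As with Chrna9, Gsdma and Ces2c, the legs of animal 5 were alike.

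Several genes known from liver and fat varied widely between animals. Mup1, a major urinary protein, stood at -0.13, -0.48, -2.61, 3.87 and -2.50 with empty vector and at -2.83, 2.42, 2.21, -1.28 and -3.41 with dnHDAC4/5, and Mup4 followed it. Serpina1d and Ahsg, secreted by liver, were also highest in the empty-vector leg of animal 4, at 3.45 and 1.73. Cidec, a lipid droplet protein, ranged from -2.32 to 3.60 over the 10 arrays.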
